A study of Mus musculus with 15 samples.

Results

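Collagen IV, nidogen and Smoc RNA was measured in the epithelium and the mesenchyme of embryonic mouse salivary glands. The 10 genes were chosen by name as a family, with earlier results of these data known: the 6 collagen IV chain genes Col4a1 to Col4a6, the nidogen genes Nid1 and Nid2, and Smoc1 and Smoc2. All 10 were found by Ensembl identifier among the 48709 genes counted. Bulk RNA sequencing was done on ICR mouse embryos, with no genetic change or treatment named in the labels: the submandibular gland (SMG) was taken on day 11.5 of gestation and the parotid (PG) on day 12. PG epithelium had 3 libraries and the other 3 groups had 4, described as independent biological replicates. Gland and embryonic day change together, so a difference between glands cannot be told apart from one between stages. How the layers were separated and how many glands went into a sample is not given in the sources used here.

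Collagen IV is the network-forming collagen of basement membranes, the thin matrix sheets on which epithelia and vessels rest. Its chains assemble in fixed combinations: the products of Col4a1 and Col4a2 form the network found in nearly all basement membranes, those of Col4a3, Col4a4 and Col4a5 that of the kidney glomerulus, and those of Col4a5 and Col4a6 a network under some epithelia and around smooth muscle. Nidogens bind both laminin and collagen IV and link the networks. SMOC proteins are secreted, calcium-binding relatives of SPARC that are found at or near basement membranes, and SMOC1 can modulate BMP signalling. In salivary and other branching glands the basement membrane lies between the bud epithelium and its mesenchyme, and either layer can supply its parts.

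The collagen IV genes lie in the genome as pairs read in opposite directions from neighbouring starts, which is why their start regions are shown here. In the GENCODE M21 annotation of GRCm38, Col4a1 (ENSMUSG00000031502, chromosome 8, 11198423 to 11312826, minus strand) and Col4a2 (ENSMUSG00000031503, chromosome 8, 11312805 to 11449287, plus strand) have first exons that overlap by 22 bases. This stretch, chr8:11312805-11312826, is transcribed as the first exon of both genes, in the direction of each as follows.
Col4a1 strand: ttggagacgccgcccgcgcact
Col4a2 strand: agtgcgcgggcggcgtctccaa

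Col4a6 (ENSMUSG00000031273, chromosome X, 141165403 to 141474076, minus strand) and Col4a5 (ENSMUSG00000031274, chromosome X, 141475385 to 141689234, plus strand) start 1308 bases apart. The bases just upstream of each start are printed for this pair because both of its members were called higher in epithelium in each gland. They come from RefSeq promoter windows on GRCm38.p6, chrX:141474077-141474326 on the minus strand for Col4a6 and chrX:141475169-141475384 on the plus strand for Col4a5. Capitals mark matches to CCAAT or GGGCGG on either strand.
Col4a6 upstream: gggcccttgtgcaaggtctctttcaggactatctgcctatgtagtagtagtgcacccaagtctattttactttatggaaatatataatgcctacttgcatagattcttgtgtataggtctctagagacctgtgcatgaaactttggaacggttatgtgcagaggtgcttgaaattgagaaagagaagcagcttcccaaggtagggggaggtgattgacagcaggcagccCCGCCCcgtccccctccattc
Col4a5 upstream: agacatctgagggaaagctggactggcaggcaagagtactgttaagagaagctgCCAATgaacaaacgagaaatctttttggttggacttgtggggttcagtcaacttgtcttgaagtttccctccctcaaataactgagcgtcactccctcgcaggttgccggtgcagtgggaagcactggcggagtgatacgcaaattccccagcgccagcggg

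The Col4a6 stretch of 250 bases held 1 GGGCGG match, as CCGCCC, and the Col4a5 stretch of 216 bases 1 CCAAT. The full Col4a5 window of 300 bases also held 1 GGGCGG match, which does not lie wholly within the printed stretch. The shares that follow are for full windows. Of 32851 RefSeq promoter windows of 300 bases, 37.4% held CCAAT or ATTGG, 35.7% held GGGCGG or CCGCCC and 13.6% held TATAAA or TTTATA. The windows of 6 members (Col4a1, Col4a2, Col4a4, Col4a5, Col4a6 and Nid1) were found in the table, and none of the 6 held TATAAA or TTTATA. Col4a3, Nid2, Smoc1 and Smoc2 had no entry. Col4a4 (ENSMUSG00000067158, chromosome 1, 82448423 to 82586849, minus strand) and Col4a3 (ENSMUSG00000079465, chromosome 1, 82586921 to 82722059, plus strand) start 71 bases apart. The other members stand alone: Nid1 (ENSMUSG00000005397, chromosome 13, 13437551 to 13512269), Nid2 (ENSMUSG00000021806, chromosome 14, 19751265 to 19811787), Smoc1 (ENSMUSG00000021136, chromosome 12, 81026808 to 81186414) and Smoc2 (ENSMUSG00000023886, chromosome 17, 14279506 to 14404790), all on the plus strand.

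Libraries held 20561142 to 29552734 gene counts, and 1 read was worth a median of 0.0397 CPM. CPM are counts scaled to a fixed library size, here after TMM factors that correct the size for differences in composition. Differences were tested with edgeR's quasi-likelihood test on the counts of all 18940 genes that passed a filter on low counts, and a gene is called where its Benjamini-Hochberg adjusted p over all of them is under 0.05. The 20 epithelial and 20 mesenchymal markers of the layers were all called in the direction of their label in both glands, which is the direction of the labelled layers. Markers of the other layer were nevertheless detected. The epithelial list added up, in SMG mesenchyme, to 0.216 to 0.565% of its level in the epithelium, and in PG mesenchyme to 15.9% for replicate 1 against 2.75 to 4.47% for the rest. The mesenchymal list added up, in SMG epithelium, to 4.84% of its mesenchymal level for replicate 3 against 1.70 to 2.10% for the rest, and in the PG epithelium libraries, in replicate order, to 1.71, 5.96 and 3.15%. In bulk RNA, fewer cells of a type and less RNA per cell cannot be told apart. Endothelial markers, of which 19 of 19 had reads in every group, summed to 791 to 1025 CPM in SMG mesenchyme and 646 to 759 in PG mesenchyme, and to 14.4 to 19.7 and 13.1 to 68.6 CPM in SMG and PG epithelium.

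Both layers held abundant Col4a1 and Col4a2 RNA, with a moderate mesenchymal excess in the PG. Col4a5 and Col4a6 were higher in epithelium, and Nid1 and Nid2 in mesenchyme, in both glands. Smoc2 was higher in epithelium and Smoc1 in mesenchyme in the SMG, and neither had a called layer difference in the PG. In the SMG 3 of the 9 tested members were higher in epithelium and 4 lower, beside 25.2% higher, 26.7% lower and 51.9% in either direction of all genes tested. In the PG, leaving out Col4a4, which passed the filter only through PG epithelium, 2 of 8 were higher and 4 lower, beside 21.9%, 24.2% and 46.0%. With so few genes, these counts are not a result about the members as a set.

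**Figure D1:**
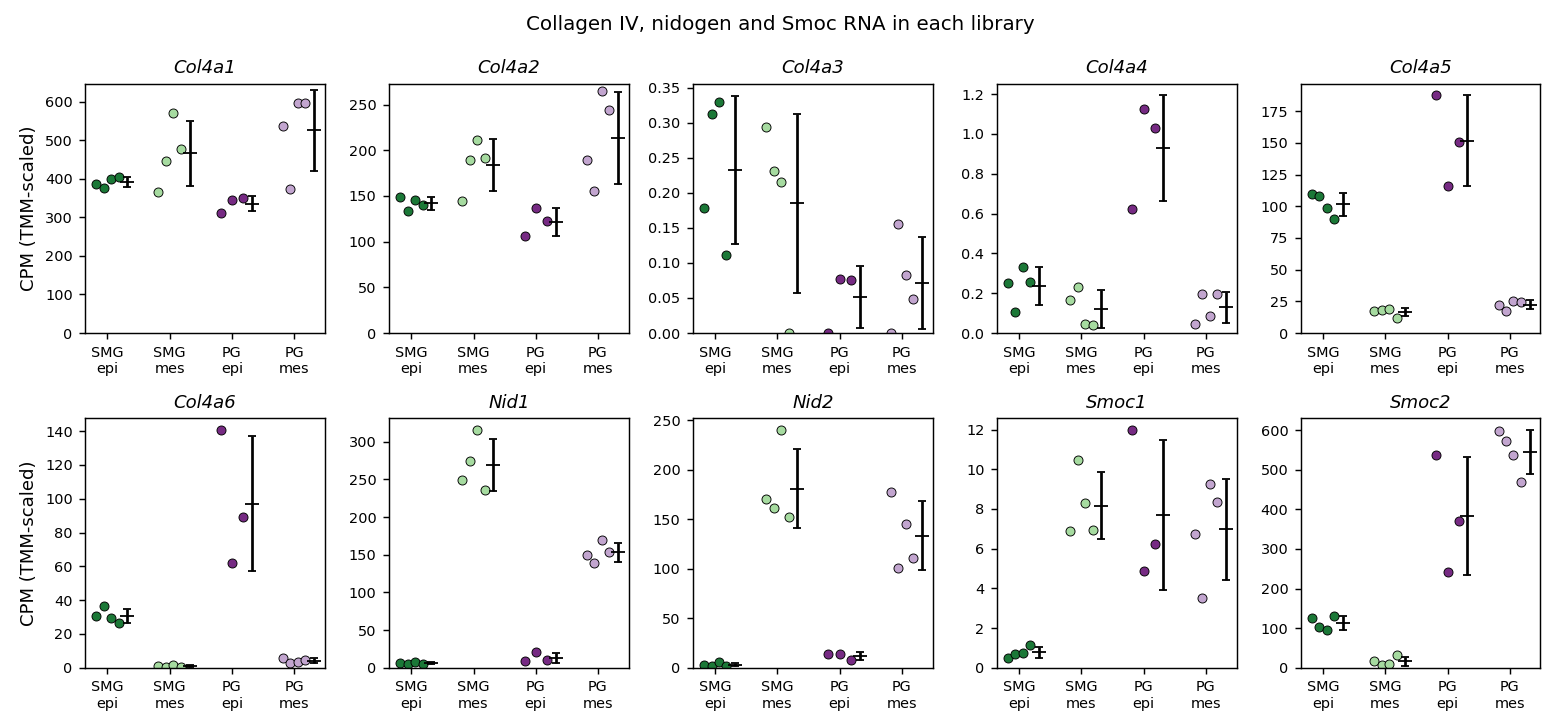
CPM (TMM-scaled, y axes from 0) of the 10 genes in every library of SMG and PG epithelium (epi) and mesenchyme (mes). Each point is 1 library in replicate order and the bar beside it the group mean ± SD. Col4a6 libraries of epithelium (26.7 to 140.5 CPM) lie above all mesenchyme libraries (0.576 to 6.06), and Smoc2 is lowest in SMG mesenchyme (6.49 to 32.1).

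Col4a1, the most abundant collagen IV chain gene by CPM and per length, stood at 388, 376, 398 and 405 CPM in the 4 SMG epithelium libraries and at 366.5, 447.5, 571.5 and 478.5 in SMG mesenchyme. The groups overlapped, the mesenchyme spread more, and the layer difference was not called (log2 epithelium minus mesenchyme -0.25 ± 0.14 (standard error), adjusted p = 0.146). Without SMG mesenchyme replicate 1 it was called (-0.35, adjusted p = 0.0433). In the PG it stood at 313, 344 and 351 CPM in epithelium and 536, 374, 596 and 598 in mesenchyme. All PG epithelium libraries lay below all PG mesenchyme libraries, and the difference was called (-0.65 ± 0.15, adjusted p = 0.00247). Mean levels were 1.57 times higher in PG mesenchyme.

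Col4a2, the partner chain, followed the same order of groups. Its levels were 149, 134, 146 and 139.7 CPM in SMG epithelium and 144, 189, 212 and 191 in SMG mesenchyme, and 106, 136 and 122 in PG epithelium against 189, 156, 265 and 244 in PG mesenchyme. It was lower in epithelium in the SMG (-0.37 ± 0.15, adjusted p = 0.0472) and the PG (-0.81 ± 0.16, adjusted p = 0.000775). The SMG groups overlapped, and that call was lost in 10 of 25 alternatives, with adjusted p = 0.131 without SMG mesenchyme replicate 3 at the highest. It was also lost when any 1 of the 4 SMG epithelium libraries, or SMG mesenchyme replicate 2 or 4, was left out (adjusted p = 0.0615 to 0.0964). From highest to lowest mean, both genes ran PG mesenchyme, SMG mesenchyme, SMG epithelium, PG epithelium, and neighbours in that order overlapped except SMG and PG epithelium for Col4a1.

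Per kb of exon, Col4a1 RNA was 2.30 to 2.57 times that of Col4a2 in SMG epithelium, 2.10 to 2.39 times in SMG mesenchyme, 2.24 to 2.63 times in PG epithelium and 2.00 to 2.51 times in PG mesenchyme. The ratio of the pair thus varied little across layers and glands, and the ranges of all 4 groups overlapped. Their log2 CPM correlated at r = 0.957 over the 15 libraries, points that share their groups and depths.

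Col4a5 RNA was 6.09 times as abundant in epithelium as in mesenchyme of the SMG. Libraries read 109.7, 108, 98.3 and 90.2 CPM in SMG epithelium and 17.4, 18.4, 19.1 and 11.9 in SMG mesenchyme, with no overlap (2.61 ± 0.17, adjusted p = 1.06e-08). In the PG they read 188, 116 and 151 CPM in epithelium and 22.3, 17.2, 25.2 and 24.3 in mesenchyme, a ratio of 6.82 with no overlap (2.77 ± 0.18, adjusted p = 3.39e-08). SMG mesenchyme libraries held 11.7 to 18.8% of the SMG epithelium mean, beside summed epithelial markers of at most 0.565%. PG mesenchyme libraries held 11.4 to 16.6% of the PG epithelium mean, beside markers of 15.9% in replicate 1 and at most 4.47% in the others. The source of the Col4a5 RNA in mesenchyme was not tested.

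Col4a6 had the widest layer difference of the collagen IV genes. SMG epithelium libraries read 30.7, 36.5, 29.2 and 26.7 CPM and SMG mesenchyme 1.05, 0.576, 1.51 and 0.726, a ratio of 31.9 (5.0 ± 0.35, adjusted p = 2.6e-08). PG epithelium read 140.5, 61.9 and 89.0 CPM and PG mesenchyme 6.06, 2.68, 3.21 and 4.50, a ratio of 23.6 (4.57 ± 0.33, adjusted p = 1.11e-07). All epithelial libraries lay above all mesenchymal ones in each gland. SMG mesenchyme libraries held 3.40, 1.87, 4.90 and 2.36% of the SMG epithelium mean in replicates 1 to 4. Summed epithelial markers stood at 0.534, 0.565, 0.428 and 0.216% in the same libraries. PG mesenchyme libraries held 6.24, 2.76, 3.30 and 4.64% of the PG epithelium mean in replicates 1 to 4. There the summed markers stood at 15.9, 3.62, 2.75 and 4.47%. The part of those markers' source in the Col4a6 levels of either gland was not tested.

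The pair's internal ratio differed between groups. Per kb of exon, Col4a5 was 3.52 to 4.24 times Col4a6 in SMG epithelium and 1.59 to 2.23 times in PG epithelium, ranges that did not overlap. In mesenchyme, where Col4a6 was low, it was 14.99 to 37.98 times in the SMG and 4.36 to 9.34 times in the PG. These are ratios of levels per length, with no test.

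Col4a4 and Col4a3, known as chains of the glomerular network, were close to absent. Col4a3 had 0 to 9 counts in a library, did not pass the filter and was not tested. Its mean was 0.233 ± 0.106 CPM (SD, n = 4) in SMG epithelium, 0.185 ± 0.128 (n = 4) in SMG mesenchyme, 0.0514 ± 0.0445 (n = 3) in PG epithelium and 0.0718 ± 0.0654 (n = 4) in PG mesenchyme. SMG mesenchyme replicate 4, PG epithelium replicate 1 and PG mesenchyme replicate 1 had no count, which allows up to 0.121, 0.125 and 0.132 CPM by a floor of 3 counts that covers counting error only. Col4a3 shares 563 exon bases, 5.65% of its exon length, with C430014B12Rik on the opposite strand, which had 1 to 6 counts in a library. The share of C430014B12Rik reads in the few Col4a3 counts was not tested. Col4a4 had 1 to 29 counts in a library and passed the filter only through PG epithelium, its highest group. It stood at 0.625, 1.13 and 1.03 CPM there and at 0.0439, 0.194, 0.0833 and 0.194 in PG mesenchyme, without overlap. A gene kept only through its highest group had to differ there, so no test of Col4a4 against PG epithelium is given. In the SMG it stood at 0.250, 0.104, 0.330 and 0.259 CPM in epithelium and 0.168, 0.231, 0.0431 and 0.0403 in mesenchyme, which overlapped (0.92 ± 0.59, adjusted p = 0.213).

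Added over the 6 chains per kb of exon, collagen IV RNA was nearly level across the groups while its make-up was not. The sum was 93.0 ± 1.58 CPM per kb (SD, n = 4) in SMG epithelium, 92.9 ± 15.6 (n = 4) in SMG mesenchyme, 98.2 ± 5.87 (n = 3) in PG epithelium and 107 ± 21.8 (n = 4) in PG mesenchyme, with overlapping libraries. Col4a5 and Col4a6 together made up 18.2 to 22.7% of it in SMG epithelium and 44.1, 27.3 and 33.9% in the 3 PG epithelium libraries, against 1.97 to 3.69% in SMG mesenchyme and 3.35 to 3.90% in PG mesenchyme. The epithelial libraries of each gland lay above all mesenchymal ones, and the 3 PG epithelium libraries above the 4 of SMG epithelium. Col4a3 and Col4a4 made up at most 0.124% in any library. With the longest transcript in place of all exon bases the Col4a5 and Col4a6 share was 17.7 to 22.1% in SMG epithelium and 27.0 to 43.9% in PG epithelium.

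**Figure D2:**
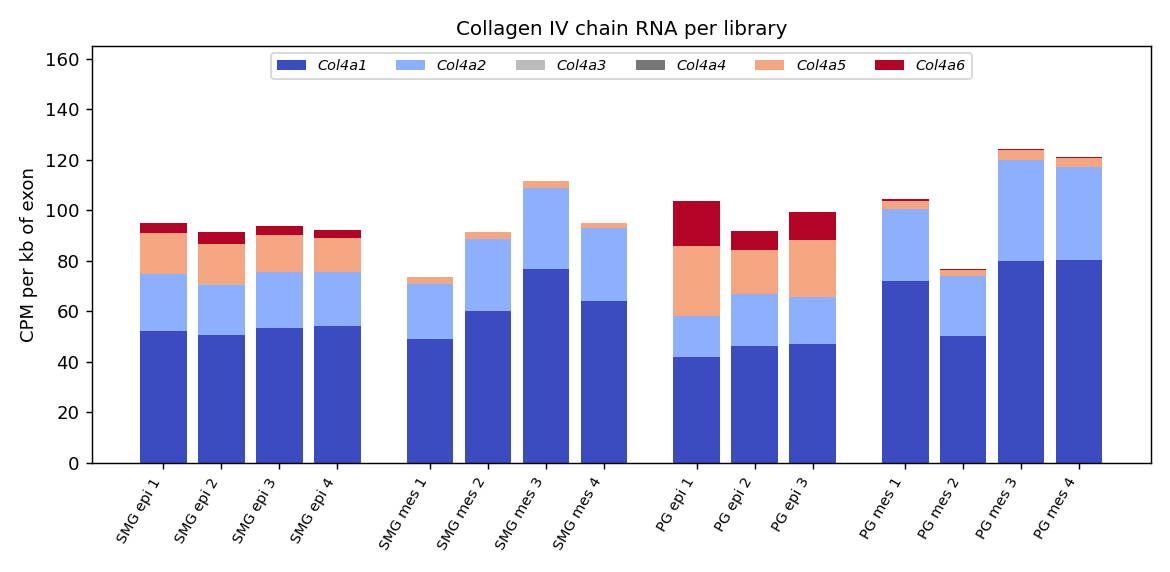
CPM per kb of exon of the 6 collagen IV chain genes, stacked for each of the 15 libraries (y axis from 0). Col4a5 and Col4a6 take 18.2 to 44.1% of the bar in epithelium (epi) libraries and 1.97 to 3.90% in mesenchyme (mes) libraries, and Col4a3 and Col4a4 are too low to see.

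Nid1, which encodes nidogen-1, was higher in the mesenchyme libraries of both glands. SMG epithelium libraries read 5.75, 4.76, 7.98 and 5.47 CPM and SMG mesenchyme 249.8, 275, 316 and 236, so that the mesenchymal mean was 44.9 times the epithelial one (-5.49 ± 0.26, adjusted p = 8.2e-10). PG epithelium read 8.91, 20.6 and 10.5 CPM and PG mesenchyme 149, 139, 170.2 and 154, a ratio of 11.5 (-3.52 ± 0.26, adjusted p = 1.56e-07). No epithelial library reached any mesenchymal one. The mesenchyme libraries also held endothelial RNA, with 19 of 19 endothelial markers called lower in epithelium in each gland. Its part in the layer differences of the nidogen genes, Col4a1 and Col4a2 was not tested.

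Nid2, which encodes nidogen-2, had the same layer. It stood at 2.61, 2.29, 5.46 and 2.03 CPM in SMG epithelium and 171, 161, 240.0 and 152 in SMG mesenchyme, a mesenchymal excess of 58.4 times (-5.87 ± 0.35, adjusted p = 1.3e-08). In the PG it stood at 14.3, 13.6 and 7.79 CPM in epithelium and 178, 101, 145 and 111 in mesenchyme, an excess of 11.3 times (-3.49 ± 0.35, adjusted p = 2.87e-06). Nid2 shares 437 exon bases, 8.45% of its exon length, with Rtraf on the opposite strand, which had 2639 to 5312 counts in a library. Reads from the SMART-Seq cDNA carry no strand, and the share of Rtraf reads in the low Nid2 counts of epithelium was not tested. Per kb of exon both nidogen genes were at like levels in mesenchyme, with Nid1 at 0.980 to 1.27 times Nid2 in the SMG and 0.627 to 1.03 times in the PG.

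The low epithelial nidogen levels were set beside the markers of mesenchyme in the same libraries. In SMG epithelium replicates 1 to 4, Nid1 stood at 2.14, 1.77, 2.97 and 2.03% and Nid2 at 1.44, 1.27, 3.02 and 1.12% of the SMG mesenchyme mean, where mesenchymal markers stood at 2.01, 2.10, 4.84 and 1.70% when summed and at a median of 0.593, 1.17, 4.09 and 0.729% over the single markers. Replicate 3 was the highest in each. Nid1 thus lay near the summed markers and above the median marker in replicates 1, 2 and 4, and below both in replicate 3. The highest of the summed markers in SMG epithelium was Col5a1, at a mean of 77.7 CPM beside a median sum of 193 CPM. Col5a1 stood at 206 CPM in SMG mesenchyme, so it weighs on the sum more than on the median. In PG epithelium replicates 1 to 3, Nid1 stood at 5.82, 13.5 and 6.85% and Nid2 at 10.7, 10.2 and 5.83% of the PG mesenchyme mean, where the markers stood at 1.71, 5.96 and 3.15% summed and at a median of 0.658, 4.88 and 0.927%. Both nidogen genes were above both marker measures in all 3 PG epithelium libraries. The part of mesenchymal RNA in these levels was not tested further.

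**Figure D3:**
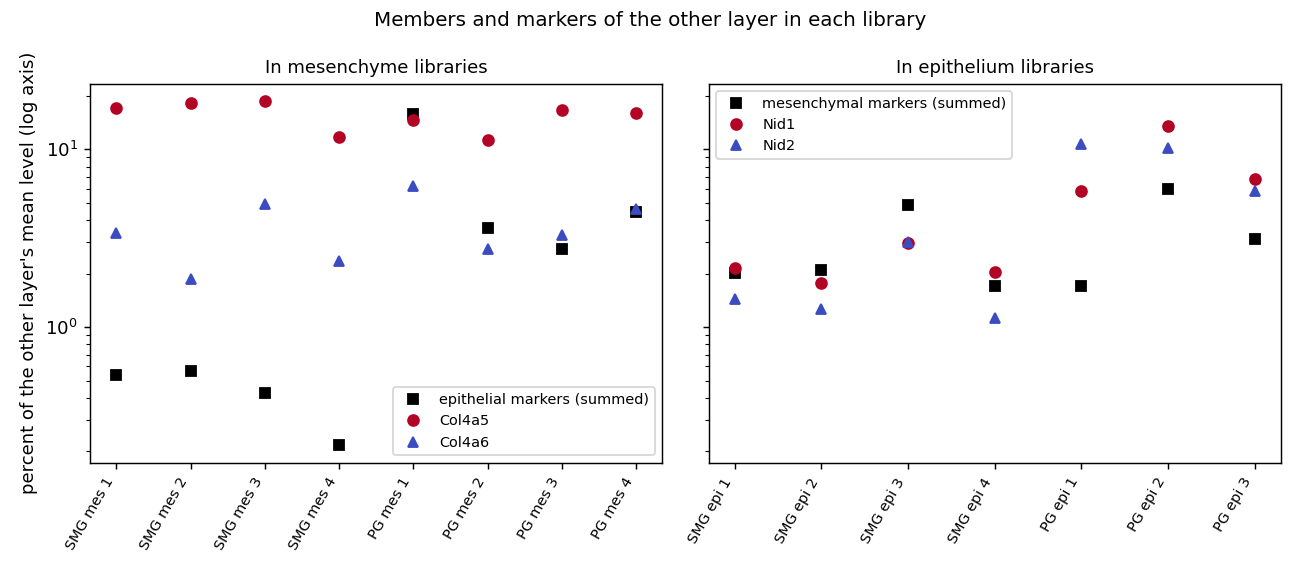
Level of Col4a5 and Col4a6 in mesenchyme libraries (left) and of Nid1 and Nid2 in epithelium libraries (right), as percent of the other layer's mean in the same gland (log axis), beside the summed markers of that other layer (squares). Col4a5 is at 11.7 to 18.8% and Col4a6 at 1.87 to 4.90% in SMG mesenchyme, where epithelial markers are at 0.216 to 0.565%. Nid1 in SMG epithelium is at 1.77 to 2.97% where summed mesenchymal markers are at 1.70 to 4.84%.

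Set against collagen IV per kb of exon, nidogen RNA was scarce in epithelium. The collagen IV sum was 42.55 to 80.9 times the nidogen sum in SMG epithelium and 16.4 to 32.9 times in PG epithelium, but 1.07 to 1.496 times in SMG mesenchyme and 1.87 to 2.78 times in PG mesenchyme. The ranges of the 4 groups did not overlap.

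Smoc2 changed layer pattern between the glands. In the SMG it stood at 125, 102, 95.1 and 129.7 CPM in epithelium and 17.8, 6.49, 9.57 and 32.1 in mesenchyme, 6.85 times higher in epithelium with no overlap (2.78 ± 0.41, adjusted p = 8.07e-05). In the PG it stood at 538, 242 and 369 CPM in epithelium and 598, 571, 538 and 469 in mesenchyme, groups that overlapped (-0.51 ± 0.41, adjusted p = 0.347). Smoc2 in PG epithelium was at 44.5 to 98.8% of the PG mesenchyme mean, beside summed mesenchymal markers of at most 5.96%. In PG mesenchyme it was at 122 to 156% of the PG epithelium mean, beside summed epithelial markers of at most 15.9%. The part of the other layer's RNA in these Smoc2 levels was not tested.

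Smoc1 was the low member of the pair, and its pattern in the SMG was the opposite one. It stood at 0.500, 0.695, 0.769 and 1.15 CPM in SMG epithelium and 6.91, 10.5, 8.32 and 6.94 in SMG mesenchyme, 10.5 times higher in mesenchyme (-3.39 ± 0.37, adjusted p = 1.78e-06). In the PG it stood at 11.99, 4.90 and 6.22 CPM in epithelium and 6.76, 3.50, 9.25 and 8.37 in mesenchyme, groups that overlapped (0.15 ± 0.35, adjusted p = 0.768). The 4 SMG epithelium libraries were the lowest of the 15. Smoc1 had 14 to 31 counts in them.

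Per kb of exon, Smoc1 made up 30.03 to 76.3% of Smoc RNA in SMG mesenchyme and at most 4.25% in any library of the other groups. With the longest transcript as the length these limits were 19.7 to 64.7% and 2.47%. The Smoc sum was 16.5 ± 2.47 CPM per kb (SD, n = 4) in SMG epithelium, 4.71 ± 1.31 (n = 4) in SMG mesenchyme, 57.3 ± 22.4 (n = 3) in PG epithelium and 80.3 ± 7.68 (n = 4) in PG mesenchyme. With the longest transcript as its length, in place of all exon bases, the mean level of Smoc2 in PG mesenchyme was 137 in place of 78.3 CPM per kb, a change that the choice of length makes in every library alike.

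**Figure D4:**
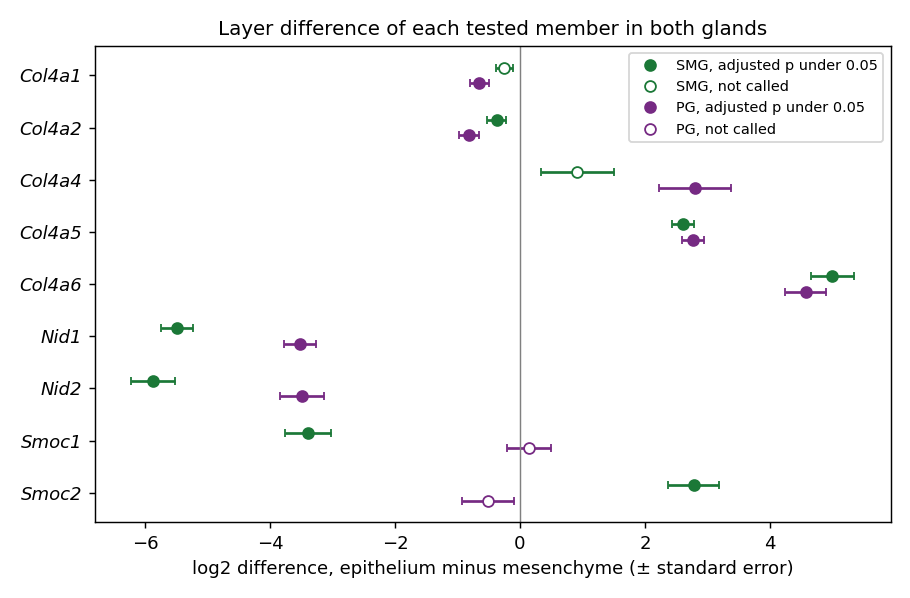
Fitted log2 difference, epithelium minus mesenchyme, of the 9 tested members in the SMG and the PG (points, with standard error bars; filled where called). Col4a5 and Col4a6 lie to the right and Nid1 and Nid2 to the left in both glands, while Smoc1 (-3.39 in the SMG, 0.15 in the PG) and Smoc2 (2.78 and -0.51) differ between glands. The PG point of Col4a4 is from a gene that passed the filter only through PG epithelium, so its filled mark is not read as a call.

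Whether the layer difference itself differed between the glands was tested as an interaction, which called 14.3% of all genes tested, 5.97% higher and 8.32% lower. Among the members it called Nid1 (1.97 ± 0.32, adjusted p = 0.000782), Nid2 (2.37 ± 0.43, adjusted p = 0.00235) and Smoc1 (3.53 ± 0.50, adjusted p = 0.000248), whose epithelium minus mesenchyme difference was higher in the PG, and Smoc2 (-3.28 ± 0.59, adjusted p = 0.00233), where it was lower. Beside these, 17 of 20 epithelial markers were called lower in the interaction with a median of -4.62, and 1 of 20 mesenchymal markers was called in each direction with a median of 0.52. Of 19 endothelial markers 3 were called higher with a median of 2.59. Their sum in PG epithelium was 68.6 CPM in replicate 2, against 15.9 in replicate 1 and 13.1 in replicate 3. The part of these marker sets in the result was not tested. These 4 members were called in all 24 alternatives run for the interaction, with at most adjusted p = 0.0104. The recovered reads are among these alternatives, but they repeat the deposited counts and add no check. The interaction of Col4a1 was -0.40 ± 0.20 (adjusted p = 0.233), of Col4a2 -0.44 ± 0.22 (adjusted p = 0.215), of Col4a5 0.17 ± 0.24 (adjusted p = 0.727) and of Col4a6 -0.44 ± 0.45 (adjusted p = 0.601). For Col4a1 it was called without PG mesenchyme replicate 2 (-0.53, adjusted p = 0.0413). No interaction is given for Col4a4, which passed the filter only through PG epithelium.

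Within the epithelium, again without Col4a4, 6 of 8 tested members were higher in the PG and 0 lower, beside 7.07%, 4.66% and, in either direction, 11.7% of all genes tested. Smoc1 had the largest difference, with a mean of 7.70 ± 3.77 CPM (SD, n = 3) in PG and 0.777 ± 0.271 (n = 4) in SMG epithelium (3.30 ± 0.39, adjusted p = 4.45e-05). Nid2 (1.94 ± 0.33, adjusted p = 0.00169), Smoc2 (1.76 ± 0.41, adjusted p = 0.0132) and Col4a6 (1.66 ± 0.29, adjusted p = 0.00151) were next. Col4a6 stood at 97.1 ± 40.0 CPM against 30.8 ± 4.15, and none of the PG libraries overlapped the SMG ones.

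Single libraries bore on these gland differences. PG epithelium replicate 1 had the highest Col4a5, Col4a6, Smoc1 and Smoc2 levels of its group and replicate 2 the lowest. Without replicate 1 the Smoc2 call was lost (1.45, adjusted p = 0.0589), and the Col4a5 difference of 0.58 ± 0.17 (adjusted p = 0.0404) became 0.41 (adjusted p = 0.163). The Col4a5 call was lost in 10 of 25 alternatives, among them the omission of PG epithelium replicate 3, of SMG mesenchyme replicate 1 or of any 1 SMG epithelium library (adjusted p = 0.0541 to 0.0887). Nid1 was higher in PG epithelium by 1.16 ± 0.24 (adjusted p = 0.0053), and by 0.71 without PG epithelium replicate 2. The Nid1 call was kept in all 25 alternatives, the recovered reads among them, with at most adjusted p = 0.0361 (only the compared groups in the edgeR fit). Mesenchymal markers were also higher in PG epithelium, 7 of 20 called with a median of 1.40, as were 4 of 19 endothelial markers with a median of 2.24. The endothelial sum was 68.6 CPM in PG epithelium replicate 2. It was 15.9 in replicate 1 and 13.1 in replicate 3, beside 14.4 to 19.7 in SMG epithelium. The part of these markers in the nidogen difference was not tested. Col4a1 (-0.22 ± 0.15, adjusted p = 0.407) and Col4a2 (-0.23 ± 0.16, adjusted p = 0.432) had no call.

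Within the mesenchyme, 2 of the 9 tested members were higher in the PG and 1 lower, beside 15.3%, 9.43% and, in either direction, 24.7% of all genes tested. Smoc2 led, at 544 ± 55.9 CPM in PG against 16.5 ± 11.5 in SMG mesenchyme (n = 4 each), 33.0 times higher (5.04 ± 0.45, adjusted p = 5.68e-06). The lowest PG library (469 CPM) lay above the highest SMG one (32.1). Of the 16 skeletal muscle markers, all 16 were also higher in PG mesenchyme, with a median of 3.64, and their part in the Smoc2 level was not tested. Col4a6 was higher by 2.09 ± 0.35 (adjusted p = 0.000484), at 4.11 ± 1.51 against 0.965 ± 0.413 CPM, beside 18 of 20 epithelial markers called higher in PG mesenchyme with a median of 4.02. Nid1 was lower in PG mesenchyme, at 153 ± 12.9 against 269 ± 34.8 CPM (-0.81 ± 0.21, adjusted p = 0.0097), with no overlap. Summed endothelial markers were also lower there without overlap, at 646 to 759 against 791 to 1025 CPM, with 1 of 19 called lower and a median of -0.33, and their part in the Nid1 level was not tested. Nid2 (-0.44 ± 0.28, adjusted p = 0.295), Col4a5 (0.41 ± 0.17, adjusted p = 0.0877), Smoc1 (-0.23 ± 0.33, adjusted p = 0.667), Col4a1 (0.17 ± 0.14, adjusted p = 0.409) and Col4a2 (0.21 ± 0.15, adjusted p = 0.34) had no call. Without PG mesenchyme replicate 2 Col4a5 was called (0.52, adjusted p = 0.0367).

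Other genes of the basement membrane were counted from lists. The layer counts of each list are to be read beside the shares of all genes tested, 25.2% higher and 26.7% lower in SMG epithelium and 21.9% higher and 24.2% lower in PG epithelium, and no list was tested as a set. Among 11 laminin chain genes, the SMG layer comparison called 5 toward epithelium and 3 toward mesenchyme (median -0.27), and the PG comparison 6 and 2 (median 0.90), where the median of all genes was 0.00 and -0.01. Lama4, a chain of vascular and mesenchymal laminins, was lower in SMG epithelium (-6.59 ± 0.65). Of 16 other tested components, 8 were higher and 5 lower in epithelium in each gland. Col17a1, the transmembrane collagen of hemidesmosomes, was epithelial (7.93 ± 0.71 in the SMG, 4.34 ± 0.59 in the PG) and Col15a1, a collagen of vascular and muscle basement membranes, mesenchymal (-5.17 ± 0.29 and -2.74 ± 0.28).

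Of 25 genes for collagen folding, modification and cross-linking, 3 were higher and 18 lower in SMG epithelium, beside 25.2% and 26.7% of all genes. In PG epithelium 1 was higher and 18 lower, beside 21.9% and 24.2%. The medians were -1.10 and -0.88. P4ha3, a prolyl hydroxylase subunit, was higher in SMG epithelium by 3.15 ± 0.27 (adjusted p = 1.38e-07), with 61.0 ± 7.17 CPM there and 6.87 ± 1.66 in SMG mesenchyme (n = 4 each). P3h2, a prolyl 3-hydroxylase known to act on collagen IV, was mesenchymal in the SMG (-3.70 ± 0.27, adjusted p = 3.05e-08). Many of these enzymes also serve fibrillar collagens.

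For 17 receptors of the basement membrane, the SMG layer comparison called 6 toward epithelium and 7 toward mesenchyme (25.2% and 26.7% of all genes), and the PG comparison 8 and 7 (21.9% and 24.2%). Itgb4, the integrin subunit of hemidesmosomes, was epithelial (6.40 ± 0.51 in the SMG) and Itga1, a subunit of a collagen receptor that binds collagen IV, mesenchymal (-6.35 ± 0.56 in the SMG, -5.34 ± 0.58 in the PG). Itga2, the corresponding subunit of another collagen receptor, stood at 16.8 ± 3.60 CPM in PG and 1.97 ± 0.387 in SMG epithelium (3.09 ± 0.24, adjusted p = 1.23e-06).

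The other SPARC family genes, relatives of the Smoc genes, were 2 higher and 4 lower of 8 in SMG epithelium (25.2% and 26.7% of all genes) and 0 higher and 6 lower in PG epithelium (21.9% and 24.2%). In PG against SMG mesenchyme 6 of the 8 were higher and 0 lower, beside 15.3% and 9.43% of all genes, with a median of 1.37. Spock1 (3.38 ± 0.37) and Spock2 (2.52 ± 0.31) were among them. Of 15 tested genes for proteases and inhibitors, 0 were higher and 12 lower in SMG epithelium and 2 higher and 7 lower in PG epithelium, beside the same shares of all genes. Timp3, an inhibitor bound to matrix, stood at 163 ± 63.5 CPM in PG epithelium against 11.3 ± 3.76 in SMG epithelium (3.85 ± 0.34, adjusted p = 8.93e-06).

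The genes most like each member were taken as those with the highest Pearson r of log2(CPM + 1) over the 15 libraries, points that share their groups, so that r reflects mainly layer and gland. For Col4a1 and Col4a2 the nearest was Efna2 (r = 0.923 and 0.934). For Col4a5 it was Myh9, non-muscle myosin heavy chain (r = 0.987), for Col4a6 Dcbld1 (r = 0.991), for Nid1 Rai14 (r = 0.996) and for Nid2 Il11ra1 (r = 0.994). For Smoc1 it was Esm1, known from endothelial tip cells (r = 0.967), whose means were 0.480 CPM in SMG epithelium, 6.81 in SMG mesenchyme, 5.87 in PG epithelium and 5.22 in PG mesenchyme. For Smoc2 it was Sncaip (r = 0.976), and for the low Col4a4 Prlr (r = 0.951). Among the members the closest were Nid1 with Nid2 (r = 0.985) and Col4a5 with Col4a6 (r = 0.978).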

How the data were processed

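Gene counts, whole numbers per Ensembl identifier for 15 libraries, and a separate CPM table were deposited by the authors, per the file headers and values. Builds GRCm38.p3 and mm10 and the tools STAR 2.5.2a, edgeR, DESeq2 and limma appear in the submitters' processing notes without roles. Which program counted reads, with which strand setting and annotation, is not given in the sources used here. Per the labels' protocols, full-length cDNA (SMART-Seq v4) went into Nextera XT libraries. The 92 spike-in rows, at most 0.00537% of a library, were left out of 48709 genes. There were 0 unmapped columns. Symbols were found for 48349 identifiers and not for 360. The CPM values deposited by the authors were whole reads over 1 constant per library (100.00% within 0.001 reads). Count tests on the recovered reads called 9826, 8721, 2221, 4678 and 2705 genes in the 5 comparisons, the same numbers as the deposited counts.

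Counts were fitted with edgeR 4.0.16 (R 4.3.3): filterByExpr, TMM, robust quasi-likelihood F-tests, two-sided, 1 mean per group, all 15 libraries in 1 fit. Standard errors are the log2 difference over the root of F. Levels per kb use all exon bases in GENCODE M21. Of 223 list symbols, 1 had no match. Named list genes are up to 3 per direction with the largest called differences and at least 5 CPM. The code was tested on simulated data. Members and lists were chosen with earlier results of these data known. Alternatives were median-ratio factors, DESeq2 1.42.0, limma 3.58.1 on log2(CPM + 1) and log2(CPM + 0.1), no filter, fewer groups, a replicate block and omitted libraries; after seeing the data, library totals and recovered reads were added.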

Additional observations from a re-analysis of the deposited data

Results flagged for a closer look

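Nid2 in SMG epithelium had 1 stray library: replicate 3 stood at 5.46 CPM and the other 3 at 2.03 to 2.61. Of 30 gene and group combinations with 4 libraries, 1 was so marked, and the rule marks about 5% of groups by chance.

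The layer difference (log2, epithelium minus mesenchyme) of 4 members differed between PG and SMG by the interaction test of edgeR: Nid1 by 1.97 (adjusted p = 0.000782), Nid2 by 2.37 (adjusted p = 0.00235), Smoc1 by 3.53 (adjusted p = 0.000248) and Smoc2 by -3.28 (adjusted p = 0.00233).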

How the results depend on the processing

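Across 24 or 25 alternatives for each, 1076 of the members' log2 differences stayed on the same side of zero and of the threshold, 26 lost a call, 4 gained one and 8 changed sign, all 8 without a call. These alternatives include the recovered reads, which repeat the deposited counts and could not differ. The totals also include the comparisons of Col4a4 with PG epithelium and its interaction, for which no test is given above. Lost and gained calls of Col4a4 are among them and are not read as results. Smoc1 in PG epithelium against mesenchyme became -0.32 without PG epithelium replicate 1 and -0.08 without PG mesenchyme replicate 2, in a range of -0.32 to 0.37 with 1 library left out. Col4a4 in PG against SMG mesenchyme became -0.18 and -0.20 without SMG mesenchyme replicate 3 or 4 and -0.21 and -0.15 without PG mesenchyme replicate 2 or 4, in a range of -0.21 to 0.59. The Col4a6 interaction became 0.23 with limma on log2(CPM + 1) and 0.07 when PG epithelium replicate 2 and PG mesenchyme replicate 1 were both left out, and was as low as -0.75 without PG epithelium replicate 1. The cause was not tested. The number of members called lower in the interaction was 1 to 2 with 1 library left out, and the other member counts and totals of called genes stayed within 1.5 times. Without PG epithelium replicate 3, genes called lower in PG against SMG epithelium numbered 572 in place of 882. With library totals in place of factors the median of all genes moved by at most 0.07. Same-numbered libraries of different groups correlated in their deviations at r = -0.188 to 0.42, over 0.1 in 5 of 21 pairs, and 10 of 42 cases were closest to their own number. In the SMG, same-numbered epithelium and mesenchyme correlated at 0.022, 0.213, 0.315 and 0.42 and other pairs at -0.296 to 0.057, a hint of pairing for replicates 2 to 4 that replicate 1 did not share, so the numbers were not taken to pair the samples. With the replicate block 10034 genes were called between the SMG layers in place of 9826, with every member call there kept. In the interaction it called 2489 in place of 2705, and the Col4a5 call (0.51, adjusted p = 0.0806) in PG against SMG epithelium was lost. The block gave each replicate number the same effect in both glands, so it is no test of pairing within the SMG. Depth limits Col4a3, Col4a4 and Smoc1 in SMG epithelium.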
